A study of Oryza sativa with 24 samples.

Results

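Potassium and sodium transporters and channels of rice were described here in roots and leaves kept with or without the cytokinin trans-zeatin (tZ). The members were the genes whose name or synonym was HAK, HKT, AKT, KAT, KCO, TPK, NHX or SOS1, with the prefix Os allowed, on a probe set assigned to exactly 1 gene. These were 28 genes on 35 probe sets, out of 17905 genes with such a probe set. There were 22 HAK genes, 2 KCO genes, 2 TPK genes, OsAKT1 and OsHKT1;5. No KAT, NHX or SOS1 gene was matched, and 11 of the 39 genes that carry a member name in the gene table had no such probe set and were not analysed here. Of 7 genes with more than 1 probe set, the brightest was taken.

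The plants were 2-week-old seedlings of the cultivar Nipponbare raised on tap water, with no nutrient solution named in the labels. Whole roots, or the third leaf of a seedling cut off at the lamina joint, were kept at 30 °C in distilled water with 0.1% dimethylsulfoxide (DMSO, the solvent), with or without 5 µM tZ. The 8 groups are DMSO for 30 min, tZ for 30 min, DMSO for 120 min and tZ for 120 min, in root and in leaf, with 3 arrays each. Every group, the DMSO controls included, was thus cut tissue in water with solvent. The labels call the 3 arrays replicates without naming separate plantings, and a p-value here covers array-to-array spread that could be purely technical.

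Potassium is taken up by plant roots through HAK/KUP/KT transporters, which work at low outside potassium, and through Shaker channels such as AKT1, which open when the membrane is strongly negative. HKT proteins carry sodium, some of them also potassium, and those of the xylem take sodium out of the sap before it reaches the leaves. The tandem-pore channels encoded by OsKCO1 and OsKCO2, also named TPKA and TPKB, let potassium out of vacuoles. OsTPK2 and OsTPK3 matched by name, but TPK is also used for thiamine pyrophosphokinase and the tables used here give no product for them. They stay in the counts and get no role.

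The treatment labels were checked with 5 type-A response regulators, which cytokinin is known to induce quickly. For OsRR1, OsRR2, OsRR4, OsRR6 and OsRR9, in both organs, the lowest of the 3 signals under DMSO 120 min exceeded the highest of the 3 under tZ 30 min. The groups labelled tZ 30 min and DMSO 120 min are therefore in doubt, and all groups are called by their labels. The comparison of tZ 120 min with DMSO 30 min uses neither of them and is given beside the treatment results, although it differs in time as well as in tZ. If the labels of the 2 doubtful groups were exchanged, each comparison of tZ with DMSO at equal time would be between times. Each comparison along labelled time would then be between tZ and DMSO. Whether the labels were exchanged was not tested, so in these comparisons tZ and time cannot be told apart. A difference between organs over all 4 groups is the same whichever of the 2 doubtful labels is right. The organs matched their labels, although the field that gives strain, tissue and age says root for leaf samples too. The leaf photosynthesis genes OsrcaA1 and LFNR1 averaged 20830 and 13030 in leaf and 86.96 and 109.4 in root. OsrbcS, a gene of the small subunit of Rubisco, had group means of 7781 to 19740 in leaf and 169.7 to 349.1 in root, and OsCASP1, a gene of the root endodermis, read 2111 to 2470 in root against 11 to 16.2 in leaf. Array medians were 68.2 to 86.7 in root and 47.6 to 57.0 in leaf, and replicate arrays correlated at 0.960 to 0.982.

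Signals are linear array units, comparable between arrays for a probe set but not between genes. Changes are log2(signal + 20) with their standard error (SE), and a change passed at a Benjamini-Hochberg adjusted p under 0.05 over all probe sets tested in limma. Of the 28 members, 25 were bright enough to be tested in root and 25 in leaf, 24 of them in both. OsHAK20 (1.2 to 20 over all 24 arrays) and OsHAK26 (0.9 to 41.1) were tested in neither organ. OsHAK27 was tested in leaf alone and OsHAK4 in root alone. A member dim in 1 group could be tested only through a brighter group, so counts over the tested members do not describe all 28.

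In leaf, OsKCO2, the gene of the tandem-pore channel known from small vacuoles, had the largest change of the members tested there. It read 1402, 1352 and 1325 in DMSO at 30 min and 84.6, 93.0 and 106.8 in tZ at 30 min. At 120 min it read 1080, 1093 and 941.8 in DMSO and 134.2, 86.8 and 175.6 in tZ. No array labelled tZ came near any array labelled DMSO. OsKCO2 fell by 3.59 on the log2 scale at 30 min (SE 0.16, adjusted p = 1.91e-11), 12.1-fold, and by 2.84 at 120 min (SE 0.16, adjusted p = 4.36e-10), 7.15-fold. Between tZ 120 min and DMSO 30 min it fell by 3.22 (SE 0.16, adjusted p = 7.42e-11).

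In root OsKCO2 passed along labelled time and not between labelled treatments at equal time. It read 538.6, 478.0 and 495.4 in DMSO at 30 min and 447.7, 475.8 and 447.9 in tZ at 30 min. At 120 min it read 326.8, 265.9 and 289.2 in DMSO and 208.1, 366.6 and 275.5 in tZ. Every array at 120 min lay below every array at 30 min. From 30 to 120 min OsKCO2 fell by 0.74 in DMSO (SE 0.17, adjusted p = 0.0132) and by 0.69 in tZ (SE 0.17, adjusted p = 0.0198). At equal time, tZ and DMSO differed by -0.13 and -0.08, neither of which passed. Between tZ 120 min and DMSO 30 min it fell by 0.82 (SE 0.17, adjusted p = 0.00117). With the doubtful labels exchanged, the root falls along labelled time would lie between treatments, and the leaf falls between treatments would lie along time. The fall along time in DMSO did not pass without root DMSO 120 min replicate 2 (-0.68) or root DMSO 30 min replicate 1 (-0.70), and that in tZ without tZ 120 min replicate 1 (-0.50) or tZ 30 min replicates 2 or 3 (-0.66 and -0.70).

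**Figure D1:**
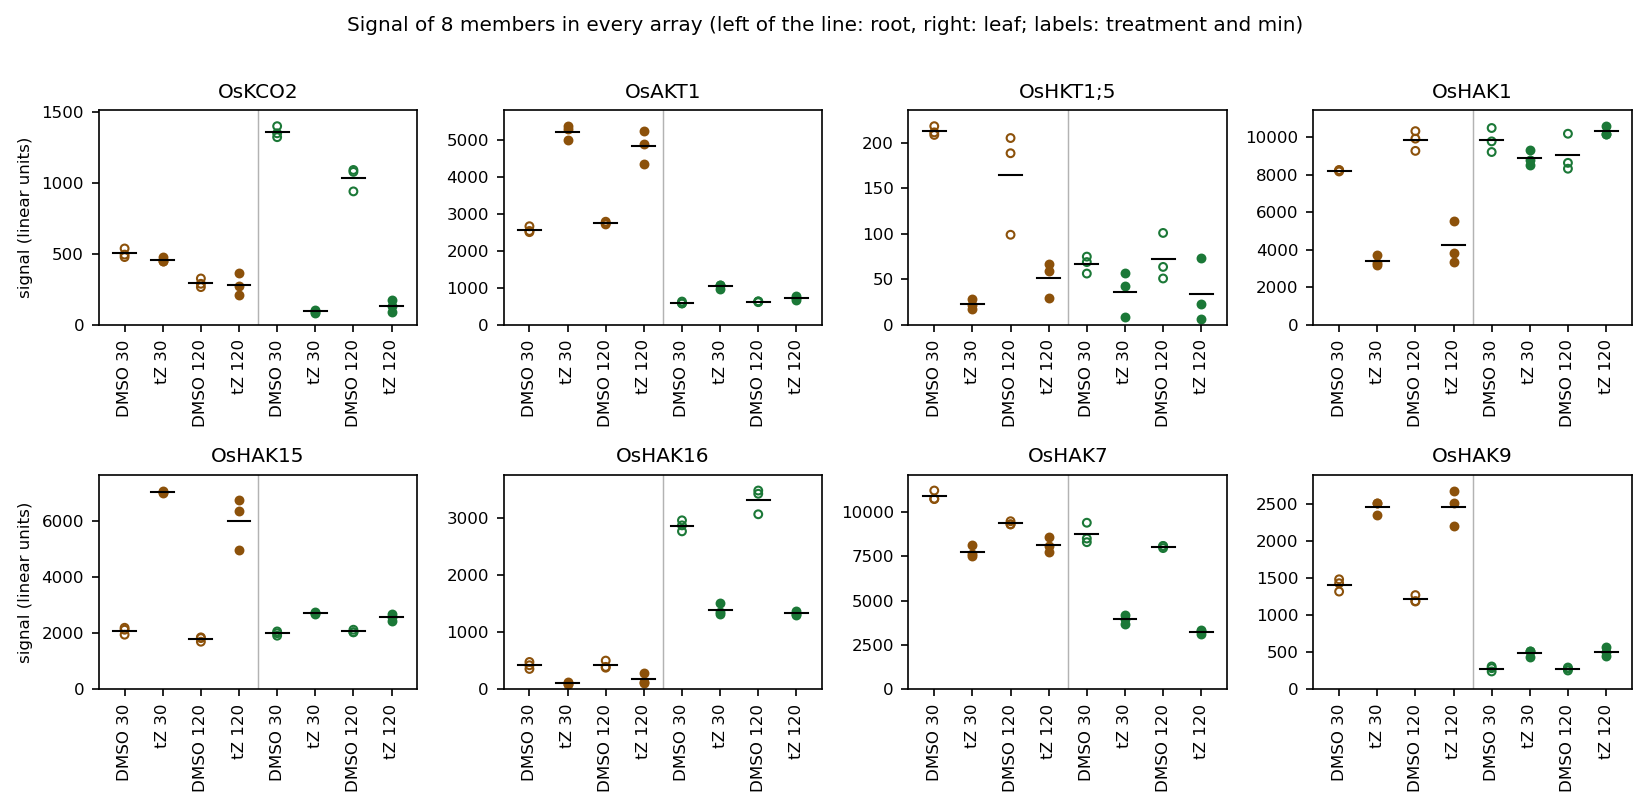
Signal (linear units) of 8 members in each of the 24 arrays, by group. Open points are DMSO, filled points tZ, brown root and green leaf, and bars are group means. OsKCO2 stands at 941.8 to 1402 in the leaf DMSO arrays and at 84.6 to 175.6 in the leaf tZ arrays, while OsAKT1, OsHAK15 and OsHAK9 lie higher in every tZ array than in any DMSO array of the same organ.

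The difference between organs was tested directly. The response of OsKCO2 in leaf was below that in root by 3.46 at 30 min (SE 0.25, adjusted p = 5.53e-11), by 2.76 at 120 min (SE 0.25, adjusted p = 2.64e-09) and by 2.40 between tZ 120 min and DMSO 30 min (SE 0.25, adjusted p = 2.95e-08). In DMSO at 30 min leaf was above root by 1.40 (SE 0.17, adjusted p = 1.47e-07), and over all 4 groups the organs differed by 0.02, which did not pass.

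OsKCO1, known from the large lytic vacuole, had a different pattern. In root it read 1242, 1242 and 1224 in DMSO at 30 min and 761.2, 776.2 and 858.6 in tZ at 30 min. It fell there by 0.62 (SE 0.093, adjusted p = 6.45e-05), and the groups did not overlap. In root at 120 min DMSO stood at 1095 ± 101 (SD, n = 3) and tZ at 1166 ± 92.3, a difference of 0.09 that did not pass. The treatment effect differed between the times by 0.71 (SE 0.13, adjusted p = 0.00628). The 4 leaf group means lay between 1013 and 1133, and no leaf comparison passed. Between tZ 120 min and DMSO 30 min OsKCO1 differed by -0.09 in root and -0.08 in leaf, so its root changes passed only in comparisons that include the group labelled tZ 30 min.

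OsAKT1, the inward-rectifying Shaker channel of potassium uptake, was higher in arrays labelled tZ. In root it read 2669, 2509 and 2540 in DMSO at 30 min and 4992, 5290 and 5379 in tZ at 30 min. At 120 min it read 2717, 2791 and 2748 in DMSO and 5253, 4352 and 4904 in tZ. The lowest root tZ array was above the highest root DMSO array at either time. OsAKT1 rose by 1.02 at 30 min (SE 0.071, adjusted p = 1.84e-08), by 0.80 at 120 min (SE 0.071, adjusted p = 3.87e-07) and by 0.90 between tZ 120 min and DMSO 30 min (SE 0.071, adjusted p = 1.1e-07).

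In leaf OsAKT1 read 595.1 ± 28.8 (SD, n = 3) in DMSO and 1038 ± 64.4 in tZ at 30 min, and 625.3 ± 11.4 and 726.4 ± 63.0 at 120 min. It rose by 0.78 at 30 min (SE 0.081, adjusted p = 5.05e-07), while the 0.21 at 120 min did not pass (adjusted p = 0.0508). The effect at 120 min was below that at 30 min by 0.58 (SE 0.12, adjusted p = 0.00772). Between tZ 120 min and DMSO 30 min OsAKT1 rose by 0.28 (adjusted p = 0.0101), which did not pass without leaf tZ 120 min replicate 2 (0.22). The leaf response was below the root response by 0.60 at 120 min (adjusted p = 5.81e-05) and by 0.63 between tZ 120 min and DMSO 30 min (adjusted p = 3.49e-05), but not at 30 min (-0.23, adjusted p = 0.0944). The probe set of OsAKT1 is of a kind that can also bind related transcripts, as are those of OsHAK1, OsHAK3, OsHAK15, OsHAK22 and OsHAK23.

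OsHKT1;5, also known as SKC1, takes sodium out of root xylem. In root it read 211.2, 218.0 and 208.4 in DMSO at 30 min and 21.5, 28.3 and 17 in tZ at 30 min. At 120 min it read 205.0, 188.3 and 98.8 in DMSO and 28.9, 58.7 and 66.2 in tZ. All root tZ arrays lay below all root DMSO arrays. OsHKT1;5 fell by 2.47 at 30 min (SE 0.31, adjusted p = 1.2e-05), by 1.36 at 120 min (SE 0.31, adjusted p = 0.00345) and by 1.75 between tZ 120 min and DMSO 30 min (SE 0.31, adjusted p = 0.000448). At signals this low the added 20 units matter. With 80 units the fall at 30 min was 1.52, and with 5 units 3.02. In leaf it ranged from 6.7 to 100.8, the groups overlapped, and -0.75, -0.91 and -0.86 in the same 3 comparisons did not pass. The last pair passed without leaf tZ 120 min replicate 2, at -1.40 and -1.34.

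The other members are HAK transporters. At 30 min in root, 7 of the 19 tested HAK genes fell and 5 rose, and at 120 min 8 fell and 3 rose. Over all members 15 of 25 passed at 30 min, 6 higher and 9 lower, against 33.7% of all probe sets tested. At 120 min 14 of 25 passed, 5 higher and 9 lower, against 30.3%. The median member change was -0.13 at 30 min and -0.17 at 120 min, beside -0.04 and -0.10 over all probe sets tested. Again 14 passed between tZ 120 min and DMSO 30 min, 4 higher and 10 lower, against 29.4%, and this comparison shares arrays with the other 2. Without the TPK genes the counts were 15, 13 and 14 of 23.

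OsHAK15 had the largest rise of any member in root. It read 2117, 2187 and 1940 in DMSO at 30 min and 7033, 7080 and 7001 in tZ at 30 min. At 120 min it read 1690, 1819 and 1845 in DMSO and 6336, 4946 and 6730 in tZ. The groups were far apart at both times, with tZ 120 min replicate 2 lowest among the tZ arrays. OsHAK15 rose 3.36-fold at 30 min (1.75, SE 0.094, adjusted p = 7.36e-10), 3.31-fold at 120 min (1.73, adjusted p = 1.03e-09) and 2.85-fold between tZ 120 min and DMSO 30 min (1.51, adjusted p = 5.84e-09). In leaf the rises were 0.45, 0.32 and 0.37 (adjusted p at most 0.000149), and the leaf response was below the root response by 1.30, 1.41 and 1.14 (adjusted p at most 1.31e-08).

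OsHAK1, a transporter of high-affinity potassium uptake induced when potassium is scarce, fell in root. It read 8238, 8245 and 8170 in DMSO at 30 min and 3202, 3717 and 3274 in tZ at 30 min. At 120 min it read 10320, 9921 and 9269 in DMSO and 3336, 5536 and 3831 in tZ. No tZ array reached a DMSO array, and tZ 120 min replicate 2 again lay nearest to DMSO. The falls were 1.27 at 30 min (SE 0.13, adjusted p = 1.13e-06), 1.24 at 120 min (adjusted p = 2.32e-06) and 0.99 between tZ 120 min and DMSO 30 min (adjusted p = 2.47e-05). In leaf the signal stayed between 8317 and 10584 in all arrays. A leaf rise of 0.20 at 120 min (adjusted p = 0.0298) had overlapping groups and passed in 1 of the 6 fits that each left out 1 array (0.14 to 0.28). The leaf response was above the root response by 1.13, 1.44 and 1.06 in the 3 comparisons (adjusted p at most 9.71e-06). The other probe set of OsHAK1 also fell in root, by 1.14 and 1.49.

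OsHAK16, known for potassium uptake and transport to the shoot, fell in both organs. In root it read 418.9, 476.8 and 354.2 in DMSO at 30 min, 84.5, 125.1 and 88.6 in tZ at 30 min, 376.1, 390.3 and 500.6 in DMSO at 120 min, and 127.2, 282.3 and 106.5 in tZ at 120 min. Leaf OsHAK16 stood at 2871 ± 96.9 (SD, n = 3), 1397 ± 103, 3331 ± 226 and 1331 ± 33.5 in the same order. In each organ every tZ array lay below every DMSO array. The root falls were 1.88 (SE 0.27, adjusted p = 4e-05), 1.30 (adjusted p = 0.00143) and, between tZ 120 min and DMSO 30 min, 1.29 (adjusted p = 0.00159). The leaf falls were 1.03, 1.31 and 1.10 (SE 0.066 each, adjusted p at most 1.26e-09). OsHAK27, its neighbour in the genome with no gene between them, did not pass in leaf at 0.07, -0.09 and 0.12.

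OsHAK7 fell more in leaf than in root. Its leaf signals were 8293, 9391 and 8499 in DMSO and 3980, 3697 and 4173 in tZ at 30 min, and 8082, 8067 and 7959 in DMSO and 3267, 3087 and 3326 in tZ at 120 min. The leaf tZ arrays thus stood at well under the level of any leaf DMSO array. The leaf falls were 1.14, 1.31 and, between tZ 120 min and DMSO 30 min, 1.43 (SE 0.058 each, adjusted p at most 6.57e-11). In root the falls were 0.49 (adjusted p = 5.54e-06), 0.20 (adjusted p = 0.0144) and 0.42 (adjusted p = 3.99e-05). The fall of 0.20 did not pass without root tZ 120 min replicate 3 (-0.17). It passed in 7 of 10 other settings, and not with the arrays shifted to the same median (-0.09). On the dimmer probe set of OsHAK7 it did not pass either (-0.19, adjusted p = 0.121). The leaf response was below the root response by 0.65, 1.11 and 1.01 (adjusted p at most 3.93e-07).

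OsHAK9 and OsHAK10, the latter known from the vacuolar membrane, rose in both organs. OsHAK9 read 1409 ± 84.6 (SD, n = 3) in DMSO and 2457 ± 98.0 in tZ in root at 30 min, and 1213 ± 48.4 and 2464 ± 241 at 120 min. The leaf values were 275.3 ± 34.1 and 489.3 ± 46.0 at 30 min, and 272.7 ± 20.4 and 502.2 ± 60.1 at 120 min. Groups did not overlap in any of these pairs. The rises of OsHAK9 were 0.80 and 1.01 in root and 0.79 and 0.83 in leaf (adjusted p at most 4.13e-05), with 0.79 and 0.82 between tZ 120 min and DMSO 30 min. Its 3 differences between organs, -0.01, -0.18 and 0.03, did not pass, with a 95% interval of -0.48 to 0.13 for the widest. OsHAK10 rose by 0.55 and 0.27 in root and by 0.73 and 0.56 in leaf (adjusted p at most 0.0358), and by 0.43 and 0.83 between tZ 120 min and DMSO 30 min. Its root rise at 120 min did not pass without DMSO 120 min replicates 1 or 2 (0.23 and 0.25) or tZ 120 min replicate 3 (0.16).

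OsHAK4, OsHAK2 and OsHAK13 passed in root and in no leaf comparison of treatments, and OsHAK4 was too dim to be tested there. OsHAK4 fell from 248.5 ± 54.9 (SD, n = 3) to 58.2 ± 28.4 at 30 min, by 1.82 (adjusted p = 0.000109), and from 314.1 ± 52.8 to 117.1 ± 41.1 at 120 min, by 1.32 (adjusted p = 0.00228). Its fall of 1.00 between tZ 120 min and DMSO 30 min did not pass without root DMSO 30 min replicate 3 (-0.84) or tZ 120 min replicate 1 (-0.75). OsHAK2 fell by 0.57, 0.86 and 0.57 in the 3 root comparisons (adjusted p at most 0.00203), and its leaf differences of -0.25, -0.29 and -0.30 did not pass. OsHAK13 fell at 120 min, from 284.7 ± 16.7 to 74.2 ± 46.7, by 1.86 (adjusted p = 0.000426), and by 1.64 between tZ 120 min and DMSO 30 min (adjusted p = 0.00118). At 30 min its -0.82 did not pass. For OsHAK13 the leaf response was above the root response by 2.17 at 120 min (adjusted p = 0.00663) and by 2.25 between tZ 120 min and DMSO 30 min (adjusted p = 0.00509). Over the other settings these were 1.48 to 2.50 and 1.43 to 2.72. OsHAK13 was dim in leaf, at 15.1 to 126.7 over all leaf arrays. That left little room for a leaf fall and limits both differences. For OsHAK2 the difference between organs did not pass in any of the 3 comparisons. OsHAK4 had no leaf signal that could fall, so any difference of its response between organs restates its root fall.

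OsHAK23 fell in root from 2735 ± 138 (SD, n = 3) to 1367 ± 58.9 at 30 min, by 0.99 (adjusted p = 2.91e-08), and from 2807 ± 69.4 to 1894 ± 127 at 120 min, by 0.56 (adjusted p = 2.08e-05). It fell by 0.53 between tZ 120 min and DMSO 30 min (adjusted p = 3.9e-05). The effect was 0.43 smaller at 120 min (SE 0.10, adjusted p = 0.0274), which did not pass when any of 5 single arrays was left out (0.39 to 0.45): root DMSO 30 min replicates 2 and 3, DMSO 120 min replicates 2 and 3, and tZ 30 min replicate 3. In leaf it fell by 0.35 at 120 min (adjusted p = 0.00699), and its -0.20 between tZ 120 min and DMSO 30 min did not pass. OsHAK11 fell in root at 120 min by 1.14 (adjusted p = 0.00114) and between tZ 120 min and DMSO 30 min by 0.98, and in leaf by 0.67, 0.80 and 0.95 (adjusted p at most 0.00022).

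In leaf 8 of 25 members fell and 5 rose at 30 min, 13 in all against 45.6% of the probe sets tested. At 120 min 10 fell and 4 rose, 14 of 25 against 43.4%. From DMSO 30 min to tZ 120 min 9 fell and 5 rose, again 14 of 25 and against 45.6%. The shares of members, 52% to 56%, were thus closer to the background in leaf than in root, where they were 56% to 60%. The median leaf member changes were -0.15, -0.23 and -0.20, beside 0.03, 0.03 and 0.02 over all probe sets. The leaf photosynthesis genes OsrbcS, OsrcaA1 and LFNR1 also fell in leaf, by 0.52 to 1.34 at 30 min, by 0.34 to 0.68 at 120 min and by 0.48 to 0.83 between tZ 120 min and DMSO 30 min. OsCASP1 stayed near background in leaf. Their part in the leaf changes of the members was not tested.

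**Figure D2:**
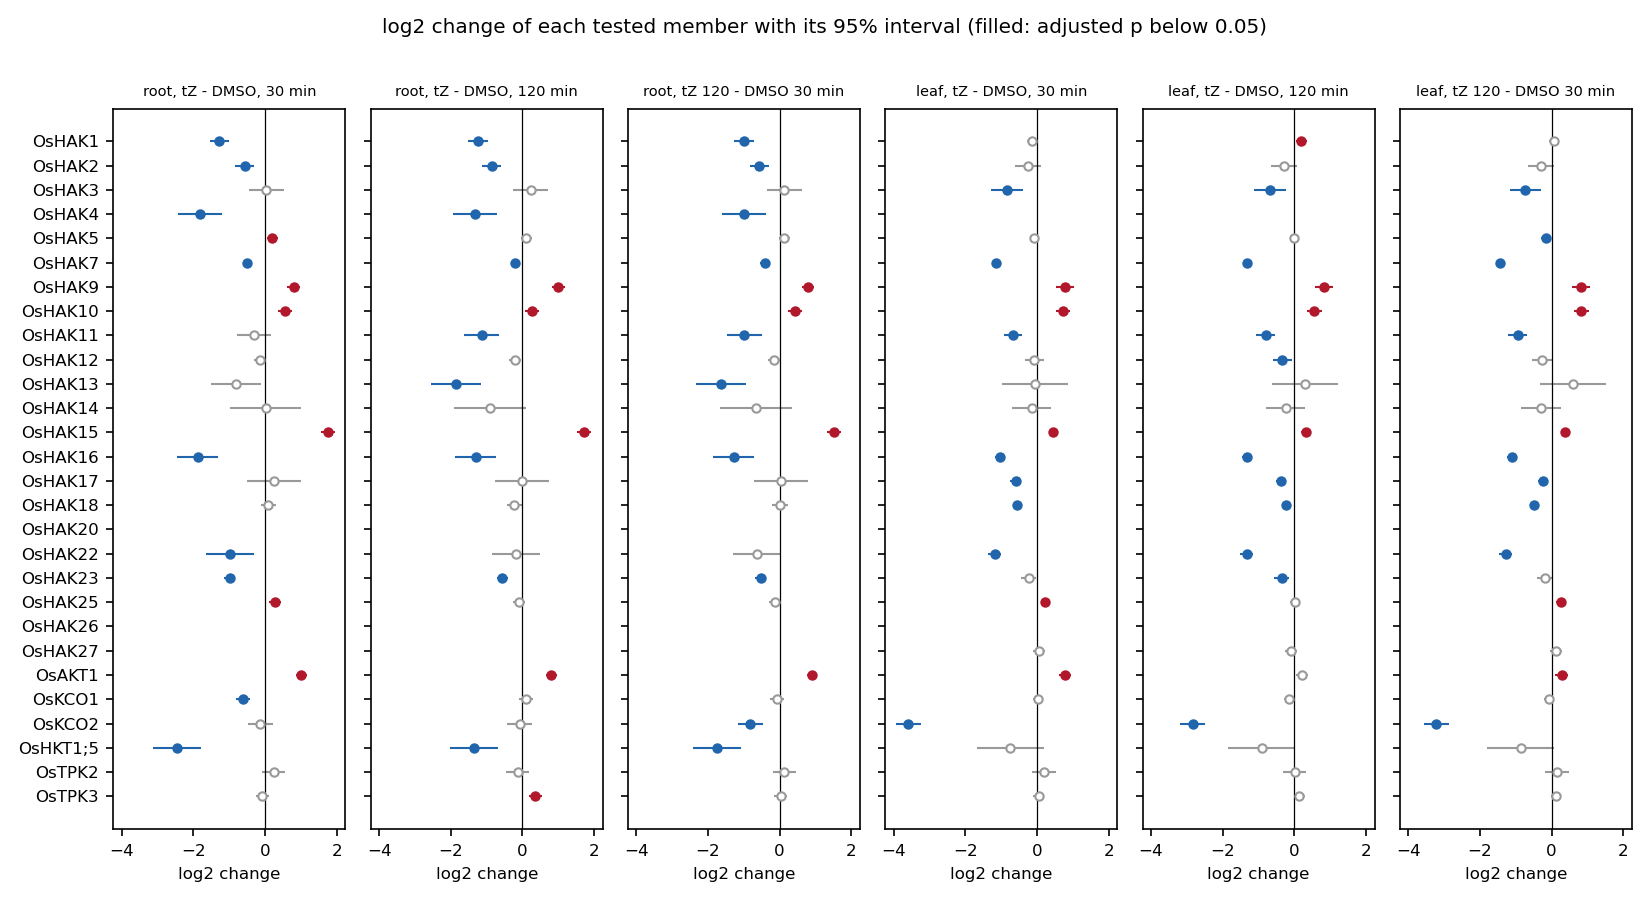
Change (log2, with 95% interval) of each tested member in 6 comparisons of groups by label. Filled points passed at an adjusted p under 0.05, red higher and blue lower, and grey open points did not pass. In leaf OsKCO2 lies farthest left (-3.59, -2.84 and -3.22), and in root OsHAK15 lies farthest right (1.75, 1.73 and 1.51). OsHAK20 and OsHAK26 have empty lines because they were not tested.

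OsHAK22, OsHAK17, OsHAK18 and OsHAK3 were the other HAK genes that fell in leaf at both times. OsHAK22 read 1912, 1867 and 1585 in DMSO and 748.1, 698.7 and 879.8 in tZ at 30 min, and 1775, 1840 and 1902 in DMSO and 717.1, 739.4 and 702.2 in tZ at 120 min. The 2 treatments did not overlap. Its leaf falls were 1.19, 1.33 and 1.29 (SE 0.087 each, adjusted p at most 7.25e-09). Its fall in root at 30 min, 0.97 (adjusted p = 0.0263), did not pass without any 1 of the 3 root DMSO 30 min arrays (-0.93 to -1.01) or without root tZ 30 min replicate 2 (-0.62), and its root value between tZ 120 min and DMSO 30 min, -0.63, did not pass. In leaf the dimmer probe set of OsHAK22 fell by 0.79 at 120 min and by 0.61 between tZ 120 min and DMSO 30 min. At 30 min its -0.40 did not pass (adjusted p = 0.141).

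OsHAK17 fell by 0.59 at 30 min (adjusted p = 1.65e-06), by 0.36 at 120 min (adjusted p = 0.000328) and by 0.25 between tZ 120 min and DMSO 30 min (adjusted p = 0.00694). OsHAK18, known for moving potassium in the phloem, stood at 5388 ± 245 (SD, n = 3) in leaf DMSO and 3636 ± 90.8 in tZ at 30 min, and at 4513 ± 182 and 3844 ± 92.9 at 120 min. It fell by 0.56 and 0.23 (adjusted p at most 0.00134) and by 0.48 between tZ 120 min and DMSO 30 min. The effect on OsHAK18 was 0.33 smaller at 120 min (adjusted p = 0.013). OsHAK3 fell by 0.84, 0.68 and 0.73 (adjusted p at most 0.0143). Its fall at 120 min did not pass without leaf DMSO 120 min replicate 1 (-0.58) or tZ 120 min replicate 1 (-0.59), nor did any of the 3 as the mean of its probe sets (-0.55, -0.35 and -0.50). None of the root differences of OsHAK17, OsHAK18 and OsHAK3 passed.

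Smaller changes involved 4 further members. OsHAK25 rose at 30 min by 0.28 in root (adjusted p = 0.00958) and by 0.23 in leaf (adjusted p = 0.00466), neither of which passed with the arrays shifted to the same median (0.25 and 0.20). OsHAK25 also rose in leaf between tZ 120 min and DMSO 30 min, by 0.25 (adjusted p = 0.00251), while its root value of -0.14 ran the other way and did not pass. In tZ OsHAK25 fell by 0.41 from 30 to 120 min in root (adjusted p = 0.00339). OsHAK12, known for keeping sodium out of the shoot, fell in leaf at 120 min by 0.33 (adjusted p = 0.0467), which did not pass when any single array was left out (-0.29 to -0.36), nor did its -0.26 between tZ 120 min and DMSO 30 min. OsTPK3 rose in root at 120 min by 0.37 (adjusted p = 0.00419) against DMSO 120 min arrays that lay below those of DMSO 30 min by 0.34. Its root difference between tZ 120 min and DMSO 30 min, 0.025, did not pass. OsHAK5, a transporter of potassium uptake and supply to the shoot, rose in root at 30 min by 0.20 (adjusted p = 0.0427) but stood at -0.16 after quantile normalization and passed in 1 of the 6 fits without 1 array (0.15 to 0.26), so its direction is not settled. Its root value between tZ 120 min and DMSO 30 min, 0.12, did not pass. In leaf OsHAK5 fell by 0.16 between tZ 120 min and DMSO 30 min (adjusted p = 0.0431), which did not pass without leaf DMSO 30 min replicate 3 (-0.10) or any tZ 120 min array (-0.16 to -0.17). OsHAK14 passed in no comparison, and OsTPK2 in none between treatments or times.

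Of the 25 root members, 4 rose and 7 fell at both 30 and 120 min. These 2 comparisons share no array, but they share the estimate of the spread, and each uses a group of doubtful label. Of all probe sets tested in root, 8.5% rose and 12.8% fell at both times. The 4 were OsAKT1, OsHAK9, OsHAK10 and OsHAK15. The 7 were OsHAK1, OsHAK2, OsHAK4, OsHAK7, OsHAK16, OsHAK23 and OsHKT1;5. In leaf 3 rose (OsHAK9, OsHAK10 and OsHAK15) and 8 fell (OsHAK3, OsHAK7, OsHAK11, OsHAK16, OsHAK17, OsHAK18, OsHAK22 and OsKCO2) at both times, against 18.3% and 17.7% of all probe sets. No member passed in opposite directions at the 2 times in either organ, against 0.423% of all probe sets in root and 0.39% in leaf. Of the 24 members tested in both organs, 5 rose and 3 fell in both at 30 min, against 7% and 9.43% of probe sets. At 120 min 3 rose and 4 fell in both organs, against 4.62% and 7.32%. OsHAK1 at 120 min was the only member that passed in opposite directions in the 2 organs, against 6.29% of probe sets at 30 min and 7.36% at 120 min, with the leaf rise limited as above.

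The responses of the 2 organs were compared for 26 members. Between tZ 120 min and DMSO 30 min, 11 differed, against 29.7% of probe sets. At 30 min 12 differed, against 31.3%, and at 120 min 9, against 30.7%. The leaf response lay higher in 5, 5 and 3 of these members and lower in 6, 7 and 6. The last count of 3 includes OsHAK4, whose leaf signal was at background. Among the lower members, OsHAK17 at 30 min and OsHAK22 at 120 min were dim in root. With the arrays shifted to the same median the split was 2 higher and 7 lower, 5 and 6, and 3 and 9, and after quantile normalization it was 5 and 6, 5 and 5, and 3 and 8. The first comparison shares arrays with the other two. Of the largest differences, OsHAK13 in leaf was above root by 1.65 to 2.69 between tZ 120 min and DMSO 30 min when single arrays were left out. Its leaf signal was dim, which limits that difference.

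**Figure D3:**
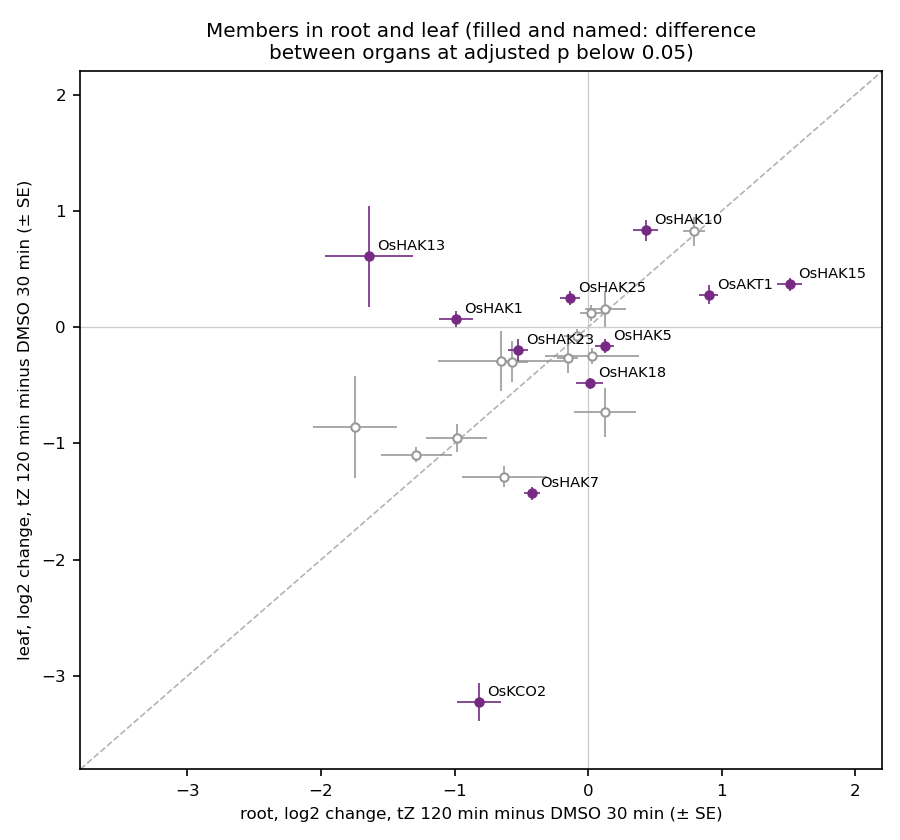
Change between tZ 120 min and DMSO 30 min in leaf (vertical, log2, ± SE) against that in root (horizontal) for the 24 members tested in both organs; the dashed line marks equal change. Filled, named points are members whose response differed between organs at an adjusted p under 0.05. OsKCO2 (-0.82 in root, -3.22 in leaf) and OsHAK7 lie below the line, and OsHAK1 (-0.99 and 0.07) and OsHAK13 above it.

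Labelled time alone moved few members. In DMSO from 30 to 120 min, 3 of 25 fell in root (OsKCO2, OsHAK7 by 0.22 and OsTPK3 by 0.34) against 6.23% of probe sets, and 1 of 25 in leaf (OsHAK18, by 0.26) against 1.40%. Of the 6 fits that each left out 1 array, OsKCO2 passed in 4, OsHAK7 in 0, OsTPK3 in 1 and OsHAK18 in 2. The dimmer probe set of OsHAK7 did not pass in root (-0.305, adjusted p = 0.0559). In limma at an unadjusted p under 0.05 the fits without single arrays that called none still held 4 to 8 members. Without single arrays the adjusted counts ranged from 0 to 2 in both organs, and 0 was reached in root without DMSO 30 min replicate 1 or DMSO 120 min replicate 2 and in leaf without replicate 2 or 3 of DMSO 30 min or replicate 1 or 2 of DMSO 120 min. In tZ over the same times, 4 of 25 passed in root against 6.74%: OsHAK23 (0.46) and OsKCO1 (0.53) rose, and OsHAK25 and OsKCO2 fell. In leaf 3 of 25 passed against 8.01%: OsHAK17 rose by 0.35, and OsAKT1 and OsHAK7 fell by 0.51 and 0.29. The dimmer probe set of OsHAK17 did not pass there, at 0.05 (adjusted p = 0.804). The treatment effect differed between the times for 2 of 25 members in root (OsHAK23 and OsKCO1) against 4.60%, and for 2 in leaf (OsAKT1 and OsHAK18) against 3.83%. The 2 root members became 1 when any 1 of 5 arrays was left out, all named above for OsHAK23, and 4 without root tZ 120 min replicate 2.

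Differences between organs were wider than those between treatments. Over the 4 groups, 23 of 26 tested members differed, 9 higher and 14 lower in leaf, against 76.8% of all probe sets. In DMSO at 30 min 20 differed, 8 higher and 12 lower in leaf, against 60.1%. Both counts include OsHAK27, tested only through leaf, and OsHAK4, tested only through root, whose calls follow from the filter. The 14 lower over the 4 groups also include OsHAK5 (-0.33), whose probe sets disagreed as given below. The median member difference was -0.47 over the 4 groups and -0.17 in DMSO at 30 min, beside -0.14 and -0.16 over all probe sets. Fewer cells of a type and less RNA per cell cannot be told apart in such whole organs. The split depends on scaling. With the arrays shifted to the same median the median of all probe sets moved from -0.14 to 0.27, and 13 members were higher and 12 lower in leaf. In DMSO at 30 min the median of all moved from -0.16 to 0.24, with 12 members higher and 10 lower. Quantile normalization moved these medians to 0.07 and 0.045 and left 9 members higher and 12 lower in each.

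OsHAK27 and OsHAK17 were close to background in root. OsHAK27 had 1539 to 2004 units in the 12 leaf arrays and 2.9 to 71.8 units in the 12 root arrays, a difference of 5.49 (SE 0.19). It entered the test between organs only through leaf, where it was bright, so its p-value is not given. The size of the difference rests on the units added to a root signal near background, and was 4.19 with 80 units and 6.28 with 5. OsHAK17 read 1556 to 3013 in leaf and 34.7 to 91.3 in root, a difference of 4.84 (SE 0.10, adjusted p = 1.42e-23). OsHAK22 (3.39), OsHAK16 (3.04) and OsHAK18 (2.16) were also higher in every leaf array than in any root array. For OsHAK16 the leaf arrays began at 1306 and the root arrays ended at 500.6. OsHAK11, OsHAK1, OsHAK25 and OsTPK3 were higher in leaf by 0.99, 0.71, 0.58 and 0.27 over the 4 groups. In DMSO at 30 min alone OsHAK1 (0.26, adjusted p = 0.0549) and OsTPK3 (0.13) did not pass.

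OsHAK12, OsAKT1 and OsHAK9 were much higher in root, as was OsHAK4, which was at background in leaf. The root arrays of OsHAK4 lay at 32.5 to 373.9 and its leaf arrays at 1.4 to 33.7, a difference of -2.66 (SE 0.17). It entered the test between organs only through root, so its p-value is not given. With 80 units added the difference was -1.45 and then smaller than those of OsHAK12, OsAKT1 and OsHAK9 (-2.30, -2.21 and -2.06). OsHAK12 read 1198 to 1512 in root against 167.4 to 240.8 in leaf, a difference of -2.58 (SE 0.047, adjusted p = 1.3e-24). OsAKT1 differed by -2.30, OsHAK9 by -2.22, OsHAK23 by -1.42, OsHAK2 by -1.20, OsTPK2 by -1.13, OsHAK10 and OsHAK13 by -0.94 each, OsHAK7 by -0.71, OsHAK3 by -0.67, OsHKT1;5 by -0.67 and OsHAK15 by -0.61. In DMSO at 30 min alone OsHAK15 (-0.07) and OsHAK3 (-0.25) did not pass, and OsHAK7 stood at -0.32. The difference of OsHKT1;5 did not pass after quantile normalization (-0.31) or with the arrays shifted to the same median (-0.26). For OsHAK13 the difference in DMSO at 30 min, -1.71, lay between -2.15 and -1.12 when single arrays were left out, and was smallest without leaf DMSO 30 min replicate 3.

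The 2 probe sets of OsHAK5 disagreed. The brighter stood at 17716 to 27093 in all arrays and differed between organs by -0.33, whereas the dimmer was higher in leaf by 5.32. In leaf the dimmer rose by 0.41 at 30 min and fell by 0.55 at 120 min, while the brighter differed by -0.08 and 0.00. Which of them stands for the transcript was not tested, and OsHAK5 is given no organ. The other genes with several probe sets (OsHAK1, OsHAK7, OsHAK10, OsHAK17 and OsHAK22) had the same organ direction on each, and the dimmer probe set of OsHAK3 was tested in neither organ.

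**Figure D4:**
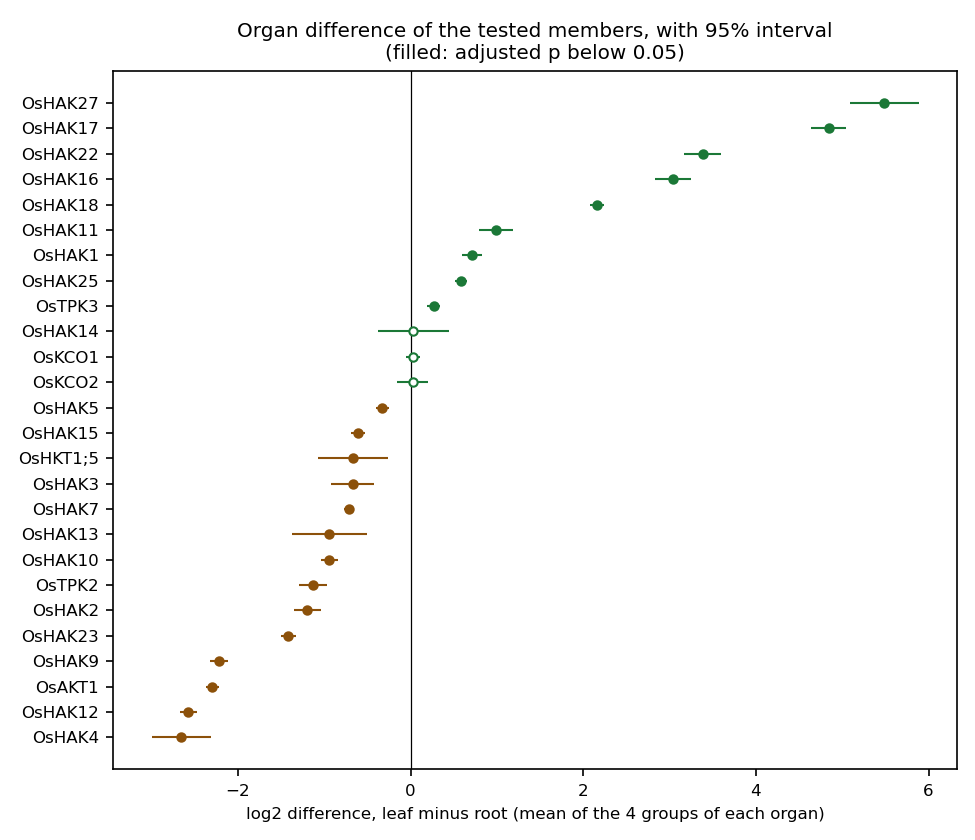
Difference between leaf and root (log2, mean of the 4 groups of each organ, with 95% interval) for the 26 tested members, in order of size. Filled points passed at an adjusted p under 0.05. OsHAK14, OsKCO1 and OsKCO2 lie near 0, and the points at both ends, OsHAK4 (-2.66) and OsHAK27 (5.49), have no fixed size because the gene was at background in leaf and in root respectively. Each of these entered the test only through the organ where it was bright.

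Genes that act on such transporters were also counted. CBL calcium sensors and CIPK kinases, some of which are known to switch on AKT1 and the sodium exchanger SOS1, had 30 tested genes. In root 9 rose and 13 fell at 30 min, against 33.7% of all probe sets passing either way, 9 rose and 15 fell at 120 min, against 30.3%, and 9 rose and 14 fell between tZ 120 min and DMSO 30 min, against 29.4%. In leaf 10 rose and 13 fell at 30 min, against 45.6%, 12 passed each way at 120 min, against 43.4%, and 10 rose and 14 fell between tZ 120 min and DMSO 30 min, against 45.6%. The medians in these comparisons were -0.13, -0.27 and -0.32 in root and 0.06, -0.02 and -0.04 in leaf. OsCIPK23, the kinase known to activate OsAKT1, and CBL4 and OsCIPK24, known as SOS3 and SOS2, were picked for these roles after their values were seen. OsCIPK23 fell in root by 0.34 and 0.38 and rose in leaf by 0.29 and 0.40 at the 2 times (adjusted p at most 0.00261). In leaf it also rose between tZ 120 min and DMSO 30 min, by 0.43, and its root value of 0.10 did not pass. OsCIPK23 has 2 probe sets, and only the brighter was used here. CBL4 fell by 1.33 and 1.67 in root and by 1.40 and 0.91 in leaf (adjusted p at most 0.026), with falls of 2.02 and 0.94 between tZ 120 min and DMSO 30 min. CBL4 was dim, at 6.3 to 302.2 in root and 78 to 308.4 in leaf, so the added units matter for these sizes. Other amounts were not tried for CBL4. OsCIPK24 rose in leaf by 0.45 and 0.23 and, between tZ 120 min and DMSO 30 min, by 0.34 (adjusted p at most 0.00826). It did not pass in root at -0.04 and -0.15, although its root fall of 0.28 between tZ 120 min and DMSO 30 min did (adjusted p = 0.0275).

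Of 8 other cation channels and exchangers, 6 fell and none rose in root at each time, with medians of -0.49 and -0.48, against 33.7% and 30.3% of all probe sets passing either way. In leaf 6 fell and 1 rose at each time, against 45.6% and 43.4%. In root 5 fell and none rose between tZ 120 min and DMSO 30 min, against 29.4%, and 4 fell and 1 rose in leaf, against 45.6%. The gene that rose in leaf, named after its values were seen, was OsCCC1, a cotransporter of cations and chloride, by 0.80 and 0.68 (adjusted p at most 4.68e-09), and in root it fell by 0.44 and 0.46 (adjusted p at most 9.01e-05). OsCCC1 rose in leaf by 0.73 and fell in root by 0.33 between tZ 120 min and DMSO 30 min. Of its 2 probe sets only the brighter was used here. A search for proton pumps by name matched only OSA15, which the gene table also names as the photosystem gene OsPSAG, and it was not counted.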

How the data were processed

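Single-channel arrays of 24 samples were analysed. The authors deposited intensity values per probe set, which had a trimmed mean of 500.07 to 500.08 on every array (2% trimmed at each end) and so were scaled to a common mean. The summary software is not given in the sources used here. Genes came from the platform's probe table, updated through the RefSeq gene table. Of 57381 probe sets, 187 controls were left out. Values were taken as log2(signal + 20), a pseudocount derived from the median of all values (63.5 over 4, kept to 1 significant digit). Probe sets with a mean above the organ's 40th percentile were tested, 34316 per organ and 38131 between organs, in limma 3.58.1 (R 4.3.3) with an intensity trend and all groups of an organ, or of both organs, in 1 fit. Adjustment was Benjamini-Hochberg over all probe sets tested. Per-array values are shown for OsKCO2 and members with the largest changes, and every member that passed is named. Members and lists were chosen with earlier results of these data known. Scripts were tested on simulated data. Alternatives were pseudocount, filter, normalization, replicate block, samples fitted, trend, probe set and each array left out. No coordinates are given, since the files name no build.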

Additional observations from a re-analysis of the deposited data

Results flagged for a closer look

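For 18 members the effect of treatment differed between times or organs at an adjusted p under 0.05 by the test of that difference in limma, 36 differences in all on the log2 scale. Of all probe sets tested, 4.60% in root and 3.83% in leaf passed between times. Between organs 31.3% passed at 30 min, 30.7% at 120 min and 29.7% between tZ 120 min and DMSO 30 min. The share of probe sets with any such difference was not counted. All 36 take the labels of the other groups as given, and those between organs at 30 or 120 min use the groups that the type-A regulators put in doubt. Those between times use both doubtful groups with the same sign, so an exchange of their labels leaves them unchanged. Those between tZ 120 min and DMSO 30 min use neither group.

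Between times, the effect in root was higher at 120 than at 30 min for OsHAK23 (0.426) and OsKCO1 (0.710). In leaf it was lower for OsAKT1 (-0.576) and higher for OsHAK18 (0.334). That of OsHAK18 did not pass with the arrays shifted to the same median (0.309).

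Between tZ 120 min and DMSO 30 min, the response in leaf was above that in root for OsHAK1 (1.059), OsHAK10 (0.402), OsHAK13 (2.249), OsHAK23 (0.328) and OsHAK25 (0.387). It was below for OsAKT1 (-0.625), OsHAK5 (-0.285), OsHAK7 (-1.008), OsHAK15 (-1.140), OsHAK18 (-0.498) and OsKCO2 (-2.403). OsHAK10, OsHAK23 and OsHAK5 did not pass without any 1 of 7, 8 and 7 of the 12 arrays, at 0.34 to 0.40, 0.23 to 0.35 and -0.22 to -0.28. The difference of OsHAK13 is limited by its dim leaf signal.

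At 30 min the leaf response was higher for OsHAK1 (1.126), OsHAK16 (0.846), OsHAK23 (0.761), OsHKT1;5 (1.718) and OsKCO1 (0.656). It was lower for OsHAK3 (-0.883), OsHAK5 (-0.276), OsHAK7 (-0.648), OsHAK15 (-1.304), OsHAK17 (-0.838), OsHAK18 (-0.659) and OsKCO2 (-3.457). OsHKT1;5 did not pass without leaf tZ 30 min replicate 1 (1.43) or 2 (1.57). Its leaf signal was dim, 56.2 to 74.8 in DMSO and 8.1 to 56.4 in tZ at 30 min. That left little room for a leaf fall and limits this difference. OsHAK16 did not pass without leaf tZ 30 min replicate 1, root DMSO 30 min replicate 2 or root tZ 30 min replicates 1 or 3 (0.75 to 0.79). OsHAK17 did not pass without leaf DMSO 30 min replicate 1, leaf tZ 30 min replicate 2 or replicate 3 of either root group (-0.67 to -0.81). Its root signal was dim, 40.8 to 76.8 in DMSO and 67 to 79.7 in tZ at 30 min. So there was little room for a root fall, which limits this difference. OsHAK3 and OsHAK5 did not pass without any 1 of 8 and 6 of the 12 arrays.

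At 120 min the leaf response was higher for OsHAK1 (1.439) and OsHAK13 (2.166), the latter limited by its dim leaf signal. The value for OsHAK4 (1.452) restates its root fall, since its leaf signal was at background. The leaf response was lower for OsAKT1 (-0.598), OsHAK3 (-0.910), OsHAK7 (-1.110), OsHAK15 (-1.411), OsHAK22 (-1.161) and OsKCO2 (-2.760). That of OsHAK4 did not pass without root DMSO 120 min replicate 2 (1.33) or tZ 120 min replicate 1 (1.21), and OsHAK3 without any 1 of 7 arrays (-0.74 to -0.94). As the mean of its probe sets OsHAK22 stood at -0.66 and did not pass. Its root signal was dim, 71.3 to 118.9 in DMSO and 67.3 to 110.5 in tZ at 120 min. That left little room for a root fall and limits this difference.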

How the results depend on the processing

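Over the 17 comparisons, 7988 checks of single members under other settings or without 1 array left 7700 on the same side of the threshold and in the same direction (96.4%), with 192 calls lost, 82 gained and 14 directions turned. OsHAK5 turned after quantile normalization in root at 30 min (-0.16) and between tZ 120 min and DMSO 30 min (-0.11), and so did its leaf minus root difference in these comparisons (0.147 and 0.052). As the mean of its 2 probe sets it turned in leaf at 30 min (0.17) and 120 min (-0.27), in their difference (-0.44) and between organs (2.50, and 2.67 in DMSO at 30 min). With the arrays shifted to the same median it turned between organs (0.083 and, in DMSO at 30 min, 0.26), as did OsHAK15 (0.33), OsHAK7 (0.078) and OsKCO1 (0.20) in DMSO at 30 min; this setting moves the median of all probe sets, and the cause of the other turns was not tested beyond the probe sets' disagreement.

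Counts of members that moved by over 1.5 times were small ones. The treatment effect differed between times in root for 5 members with a stricter filter and 1 without the trend, and in leaf for 1 at equal medians and 1 without the trend. Along time in DMSO, leaf gave 0 at equal medians (6 in limma at an unadjusted p under 0.05), 0 without the trend (5 unadjusted) and 2 with only the groups compared, and root gave 0 without the trend (5 unadjusted). In tZ over time, root gave 2 at equal medians. Without single arrays the ranges were 0 to 2 for time in DMSO in root, 0 to 2 in leaf, and 1 to 4 for the root difference between times. At equal medians the share of calls that were higher moved from 37.7% to 54.0% in root at 120 min (median of all probe sets -0.10 to 0.01), from 44.1% to 64.3% between organs and from 43.4% to 62.5% in DMSO at 30 min. It also moved from 52.1% to 28.0% and from 50.5% to 71.6% for time in DMSO in root and leaf, from 54.2% to 69.6% for time in tZ in root, from 56.5% to 83.4% for the root difference between times and from 56.4% to 40.6% for leaf minus root at 120 min.

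Replicate numbers do not pair the arrays: correlations of same-numbered deviations were -0.048 to 0.061 over 18 pairs in root and -0.037 to 0.021 over 18 in leaf. With the replicate block 14 members passed in root at 30 min and at 120 min and 13 in leaf at each time, and no count moved by over 1.5 times. With 3 arrays a group, changes of dim genes such as OsHKT1;5, OsHAK13 and OsHAK14 are poorly fixed.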
